A study of Mus musculus with 4 samples.

Results

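The transcripts described here belong to 10 mouse genes that make or use nicotinamide adenine dinucleotide (NAD), the coenzyme that carries electrons through glycolysis and respiration: *Nmrk1*, *Nmrk2*, *Nampt*, *Nmnat1*, *Nmnat2*, *Nmnat3*, *Nadsyn1*, *Cd38*, *Sirt1* and *Parp1*. They are read by 11 of the 39429 non-control probes of the array, which the files assign to 29676 gene names. *Nmnat3* has 2 probes and each of the other 9 genes has 1. The genes were chosen by name from values measured on these same arrays, the difference of the processed signal between untreated cultures and cultures after oxygen–glucose deprivation (OGD), with *Nmrk2* picked for its increase. Their differences are therefore given as a description. Where the number of their probes past the adjusted p of the fit over all probes is printed, it stands beside the share of all probes and supports nothing.

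Cells recycle NAD by salvage, in which NAMPT turns nicotinamide, and the nicotinamide riboside kinases NMRK1 and NMRK2 turn nicotinamide riboside, into nicotinamide mononucleotide. The enzymes NMNAT1 in the nucleus, NMNAT2 at the Golgi and in axons and NMNAT3 in mitochondria then make the dinucleotide, and NADSYN1 completes the route that starts from nicotinic acid or tryptophan. CD38, SIRT1 and PARP1 split NAD when they act, as a glycohydrolase at membranes, a deacetylase and a DNA damage–responsive ADP-ribosyltransferase.

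The 4 RNA samples came from astrocyte-enriched cultures (AECs) of ICR mice, with no genetic change named. These were mixed glial cultures of the cerebral cortex of newborn pups of either sex, several pups pooled. In the paper's staining microglia were almost absent from AECs, whereas oligodendrocytes remained. Most microglia had been removed with PLX3397, a drug that blocks the receptor CSF1R, on which microglia depend. This drug treatment was shared by both groups, which were AECs left untreated (n = 2) and AECs kept under OGD for 15 h (n = 2), that is without glucose and at low oxygen. According to the methods, wells were seeded from separate cultures of different pups. Each RNA was labeled with Cy3 and read on its own array, and the 4 arrays shared 1 slide and 1 scan, so that no batch could be compared.

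The arrays after OGD were dimmer as a whole, and this bears on every sign given below. In untreated cultures the 75th percentile of the processed signal was 2135 and 2164, and under OGD it was 887 and 776, which differ by −1.37 in log2 units, whereas 9 control probes for spiked-in RNA differed by −0.085 on average, with a range of −0.75 to 0.28 between them that is wider than the distance from 0 of several signs that turn with spike-in scaling below. Values are therefore given first as processed signal, and then as log2 signal minus the array's 75th percentile (normalized log2 signal). On that scale the median difference over the 28163 probes tested was 0.18. Of the 10 astrocyte markers, all 10 were well above background on all 4 arrays, with a summed normalized signal (linear, relative to the 75th percentile) of 149 to 168 in untreated cultures and 228 to 233 after OGD. On the normalized scale 6 of these markers rose in limma, beside 37.1% of all genes, although each of the 6 read lower after OGD before scaling, and 1 fell, *Sox9*, a transcription factor of astrocytes, by 1.52. Summed the same way, 9 oligodendrocyte lineage markers gave 24.5 to 24.7 untreated and 18.6 to 19.9 after OGD. In limma 3 of them rose and 4 fell, *Olig2* by 2.50. The 8 neuron markers gave 29.1 to 31.1 and 31.3 to 34.4, and 4 rose and 2 fell. For meningeal fibroblasts and mural cells 5 markers gave 69.2 to 78.3 and 129 to 136, mostly *Acta2*, and 1 rose and 2 fell. The part of these cells in the values below was not tested. The cultures were bulk samples, in which fewer cells of a type and less RNA per cell cannot be told apart.

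Promoters of 4 of the genes are printed here because these were the genes with the highest difference (*Nmrk2*, *Nampt*, *Sirt1*) and the lowest (*Nmnat3*). Each is the RefSeq sequence of GRCm38.p6 from 250 bases before to 50 bases after the gene's start, on the strand of the gene, 5′ to 3′. Capitals mark the core of the hypoxia response element, ACGTG or GCGTG on either strand (CACGT or CACGC when read on the other).

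Nmrk2 promoter, chr10:81201988-81202287, minus strand: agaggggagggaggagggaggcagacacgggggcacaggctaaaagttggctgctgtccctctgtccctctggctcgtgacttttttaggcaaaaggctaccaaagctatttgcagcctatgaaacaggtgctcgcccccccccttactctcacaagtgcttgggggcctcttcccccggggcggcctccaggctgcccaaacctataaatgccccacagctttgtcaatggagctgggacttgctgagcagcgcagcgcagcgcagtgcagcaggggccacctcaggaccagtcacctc
Nampt promoter, chr12:32820085-32820384, plus strand: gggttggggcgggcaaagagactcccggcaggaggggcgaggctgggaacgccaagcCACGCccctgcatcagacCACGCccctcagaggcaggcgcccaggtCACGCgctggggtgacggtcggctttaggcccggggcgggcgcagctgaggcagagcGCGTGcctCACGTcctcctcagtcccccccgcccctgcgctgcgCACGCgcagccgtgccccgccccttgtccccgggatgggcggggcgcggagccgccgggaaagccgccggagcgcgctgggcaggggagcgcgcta
Sirt1 promoter, chr10:63338986-63339285, minus strand: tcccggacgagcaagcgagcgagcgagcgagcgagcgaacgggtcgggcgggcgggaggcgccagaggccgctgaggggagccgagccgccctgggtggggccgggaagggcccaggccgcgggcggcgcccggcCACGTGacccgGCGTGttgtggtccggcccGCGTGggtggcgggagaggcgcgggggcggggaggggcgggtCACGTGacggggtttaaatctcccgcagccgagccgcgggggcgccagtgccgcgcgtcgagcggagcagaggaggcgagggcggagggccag
Nmnat3 promoter, chr9:98296320-98296619, plus strand: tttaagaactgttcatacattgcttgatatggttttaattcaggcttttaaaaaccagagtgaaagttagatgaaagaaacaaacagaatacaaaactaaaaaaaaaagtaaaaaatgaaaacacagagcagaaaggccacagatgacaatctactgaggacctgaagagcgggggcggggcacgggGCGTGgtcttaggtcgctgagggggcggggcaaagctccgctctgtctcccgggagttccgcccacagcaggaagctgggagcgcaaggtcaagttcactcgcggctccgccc

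All 10 genes had a RefSeq promoter, 11 windows in all since *Nmnat1* has 2 starts. The *Nampt* window held 6 separate stretches of the hypoxia core, at −193, −175, −147, −90, −82 and −46 from the start, and 0.271% of the 32851 promoters of the table held 6 or more. The *Sirt1* window held 4, a number that 2.44% of all promoters reached, and at −115 and −43 they lay within the palindrome CACGTG (E-box), which 7.15% of all promoters held. *Nmrk1* and *Parp1* had 2 stretches each, of which 1 in *Parp1*, at −49, also lay within CACGTG, and *Nmnat2* and *Nmnat3* had 1 each. No stretch was in the windows of *Nmrk2*, *Nmnat1*, *Nadsyn1* or *Cd38*, and 43.8% of all promoters held at least 1. The *Nampt* and *Sirt1* windows were also rich in G and C (76.3% and 79.0%, against a median of 52.7% over all promoters). Short motifs that are mostly G and C, as the hypoxia core is, occur more often in such sequence. The *Nmrk2* window was at 60.7% and the *Nmnat3* window at 49.0%.

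The other motifs searched, on both strands, were TGACG, the short form of the cAMP response element, which is held by 20.8% of all promoters, TGACTCA or TGAGTCA (AP-1, 5.20%), AAAGGTCA (the site of NR4A monomers, 1.51%) and TGATGCAA (CARE, an ATF4 site, 0.895%). TGACG was found in 2 stretches in the *Nmnat2* window and in 1 each in those of *Nampt*, *Nadsyn1* and *Sirt1*. The last 3 motifs were in none of the 11 windows. A match is a string of letters and not a measured binding site, and a window without one says nothing of sequence outside it.

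*Nmrk2*, the riboside kinase best known from skeletal and heart muscle, was the gene with the highest difference of the 10. Its probe (A_51_P369762, NM_027120; mm9, chromosome 10, 80662033 to 80662092) read a processed signal of 70.1 and 56.2 untreated and 2547 and 2061 after OGD. Both OGD arrays lay far above both untreated arrays, and the 4 spots were well above background. The normalized log2 signal was −5.10 ± 0.24 (SD, n = 2) untreated and 1.46 ± 0.080 (SD, n = 2) after OGD, a difference of 6.56 (standard error 0.15), or 94.6-fold. The difference ranked 7 among the increases of the 28163 probes tested. It was positive in all 16 alternatives run, from 5.28 when the arrays were set on the spiked-in control probes to 6.73 without untreated replicate 1. In the signal as deposited, with no scaling, the mean after OGD was 36.5 times that of the untreated arrays.

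Of 8 markers of striated muscle, 1 (*Acta1*) was well above background on all 4 arrays, and *Ckm*, *Ttn* and *Des* were not well above background on any array. The summed normalized signal of the list was 0.904 to 1.15 in untreated cultures and 2.38 to 2.67 after OGD. *Acta1*, skeletal muscle actin, made up most of this sum, with a processed signal of 2397 and 1906 untreated and 2340 and 1826 after OGD, so that before scaling its groups overlapped. The genes whose 4 values lay closest to those of *Nmrk2*, each centered on its own mean, were *Slc16a3* (the lactate exporter MCT4), *Lce1g* and *Tac1* (the precursor of substance P). Their root mean square distances over the 4 arrays were 0.19, 0.20 and 0.21 log2 units, among 24493 probes well above background on all 4 arrays, and their differences were 6.40, 6.23 and 6.42.

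*Nmrk1*, the riboside kinase that most tissues express, was dimmer after OGD in the signal as deposited. Its probe (A_52_P663526, NM_145497; mm9, chromosome 19, 18725771 to 18725830) gave a processed signal of 166 and 182 untreated and 40.5 and 37.0 after OGD. The groups did not overlap, with both OGD arrays lower. The normalized log2 signal was −3.63 ± 0.080 (SD, n = 2) against −4.42 ± 0.044 (SD, n = 2), a difference of −0.79 (standard error 0.087), which became 0.11 with normexp background correction and −2.08 with spike-in scaling. A ratio of 2 probes of the same array does not depend on the factor by which the array is scaled, but it does depend on the background correction. The log2 ratio of *Nmrk2* to *Nmrk1* was −1.24 and −1.69 untreated and 5.98 and 5.80 after OGD, so that the balance of the kinase signals moved by 7.35, or 164-fold, and with normexp by 5.49, or 44.8-fold.

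*Nampt*, the rate-limiting enzyme of salvage from nicotinamide, was the other gene that was higher after OGD by more than 10-fold. Its probe (A_51_P387235, NM_021524; mm9, chromosome 12, 33535475 to 33535534) read 2253 and 2396 untreated and 9480 and 9583 after OGD. Both OGD arrays were above both untreated arrays before any scaling, with means 4.10 times apart. The normalized log2 signal was 0.11 ± 0.049 (SD, n = 2) and 3.52 ± 0.15 (SD, n = 2), a difference of 3.41 (standard error 0.11), or 10.6-fold, which lay between 2.12 with spike-in scaling and 3.51 without OGD replicate 1 over the 17 alternatives. Among the promoters printed above, its window is the one with 6 copies of the hypoxia core, and that of *Nmrk2* has none. Any link between such copies and the signals was not tested. The log2 ratio of *Nampt* to *Nmrk1* moved by 4.20 within the arrays, and with normexp by 3.20.

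Of the NMNAT enzymes that complete the dinucleotide, *Nmnat3* lay farthest from its untreated level. For *Nmnat3*, the mitochondrial enzyme, the probe A_55_P2106525 (NM_144533; mm9, chromosome 9, 98311751 to 98311810) read 622 and 697 untreated and 62.3 and 63.2 after OGD. Both OGD arrays were about an order of magnitude dimmer than both untreated arrays before scaling. The normalized log2 signal was −1.71 ± 0.10 (SD, n = 2) against −3.73 ± 0.15 (SD, n = 2), a difference of −2.02 (standard error 0.12), or 4.05-fold lower, and it was negative in all 17 alternatives, from −3.31 with spike-in scaling to −1.33 with normexp. The other *Nmnat3* probe (A_55_P2128714, NM_001357449; chromosome 9, 98320811 to 98320870) read 3.38, 2.04, 1.35 and 1.54 on the same arrays and was not well above background on any of them, so that it gave no fold and was not tested.

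*Nmnat2*, an enzyme on which axons depend for survival, read 243 and 216 untreated and 62.5 and 59.1 after OGD (A_51_P223546). The groups did not overlap, and the normalized difference was −0.54 (standard error 0.11), which became 0.0027 with normexp and −1.83 with spike-in scaling. *Nmnat1*, the nuclear enzyme, read 1356 and 1332 untreated and 523 and 406 after OGD (A_55_P2146374). Its signal was lower after OGD before scaling, but its normalized difference was only −0.17 (standard error 0.098), and it became −1.46 with spike-in scaling. Within the arrays the log2 ratio of *Nmnat3* to *Nmnat1* moved by −1.85, from −1.12 and −0.93 to −3.07 and −2.68, whereas that of *Nmnat2* to *Nmnat1* moved by −0.37. With normexp these ratios moved by −1.18 and by 0.15, so that the sign of the second turned.

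*Nadsyn1*, the amidating synthetase of the nicotinic acid route, gave a processed signal of 1463 and 1584 untreated and 443 and 444 after OGD (A_51_P140350). Both OGD arrays were lower, and the normalized difference was −0.41 (standard error 0.11), with a range of −1.69 with spike-in scaling to −0.28 with normexp.

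The enzymes that consume NAD did not share a direction on the normalized scale. *Sirt1*, the nuclear deacetylase, read 2792 and 2864 untreated and 2515 and 2481 after OGD (A_55_P2030428), slightly lower after OGD before scaling, with no overlap. Its normalized log2 signal was 0.40 ± 0.012 (SD, n = 2) against 1.59 ± 0.12 (SD, n = 2), a difference of 1.19 (standard error 0.097), or 2.29-fold higher, and this turned to −0.094 with spike-in scaling. *Parp1*, the main poly(ADP-ribose) polymerase of the DNA damage response, read 2127 and 2231 untreated and 525 and 406 after OGD. Its probe (A_51_P314277) spans 299 bases of chromosome 1 on mm9, from 182530341 to 182530639, where each of the other member probes spans 60. The normalized difference was −0.86 (standard error 0.10), or 1.82-fold lower, with a range of −2.15 with spike-in scaling to −0.77 without OGD replicate 2. Within the arrays the log2 ratio of *Sirt1* to *Parp1* moved from 0.39 and 0.36 to 2.26 and 2.61, by 2.06 or 4.17-fold, and that of *Nampt* to *Parp1* by 4.27.

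*Cd38*, a glycohydrolase of the cell surface that immune cells and astrocytes carry, read 284 and 291 untreated and 121 and 125 after OGD (A_66_P101835). Its normalized values did not overlap, but the difference of 0.15 (standard error 0.11) was below the median of all probes tested, and it depended on the processing, at 0.36 with normexp, −0.0021 with the 75th percentile taken over the brighter probes and −1.14 with spike-in scaling. Of 11 microglia markers, 8 were well above background on each of the 4 arrays, and the list's summed normalized signal was 4.98 to 5.37 in untreated cultures and 11.55 to 11.81 after OGD. Among them *Cd68*, a lysosomal protein of phagocytes, had a processed signal of 1157 and 1213 untreated and 4301 and 3778 after OGD. *Cx3cr1* and *Ptprc* were not well above background on either OGD array. The part of microglia left in the cultures in the values of *Cd38* was not tested.

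**Figure D1:**
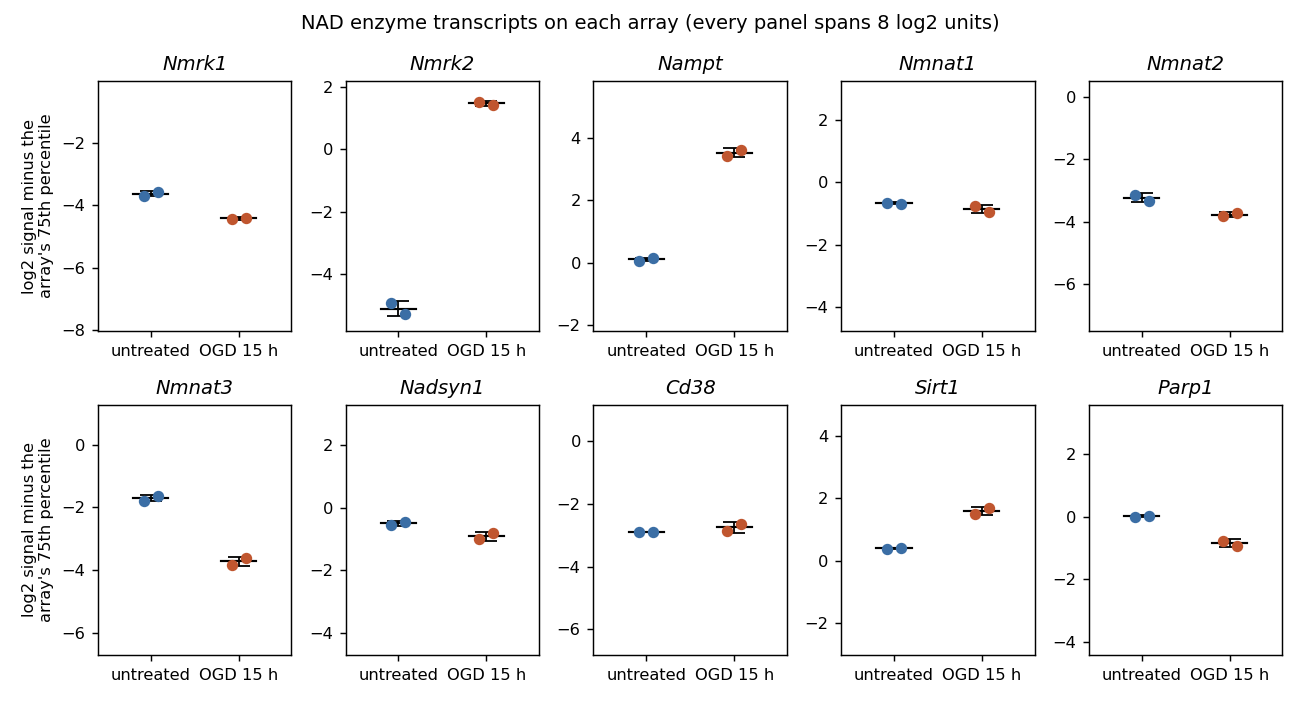
Normalized log2 signal (log2 processed signal minus the array's 75th percentile) of the tested probe of each of the 10 genes, with 1 panel per gene, each panel spanning 8 log2 units around its own values. Points are arrays (2 untreated, 2 after OGD for 15 h) with their mean and SD, and the means of *Nmrk2* lie 6.56 apart and those of *Nampt* 3.41 apart, with OGD on top, against −0.17 for *Nmnat1* and 0.15 for *Cd38*.

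Of the 11 probes, 10 passed the filter on dim probes, and each of these was well above background on every array. In the fit with limma, 8 of the 10 were past an adjusted p of 0.05, which 38.0% of all probes tested passed upward and 27.1% downward. The genes had been selected on this contrast, and nothing is read from the count. *Nmrk2*, *Nampt* and *Sirt1* were higher, *Nmrk1*, *Nmnat2*, *Nmnat3*, *Nadsyn1* and *Parp1* lower, and *Nmnat1* and *Cd38* did not pass, with the signs of *Nmrk1*, *Nmnat2* and *Sirt1* turning under the alternatives given above. *Nadsyn1* did not pass in 5 alternatives, the methods' t-test, no filter on dim probes and leaving out either untreated replicate or OGD replicate 1, and *Nmnat2* in 4, the methods' t-test, normexp and leaving out either untreated replicate. *Nmnat1* was past the limit as lower with the percentile over the brighter probes and with spike-in scaling, and *Cd38* as higher with normexp and as lower with spike-in scaling. The 2 probes over 10-fold higher, *Nmrk2* and *Nampt*, stand beside 0.813% of all probes. *Nampt* was only just past this limit and fell short of it with normexp (3.31), quantile normalization (3.19), the percentile over the brighter probes (3.26) and spike-in scaling (2.12), and without OGD replicate 2 (3.31), all in log2 units. The median difference of the 10 was −0.29, against 0.18 over all probes tested. Before scaling, *Nmrk2* and *Nampt* were the 2 of the 10 probes whose OGD arrays both read above both untreated arrays, as did 5.46% of all probes tested.

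**Figure D2:**
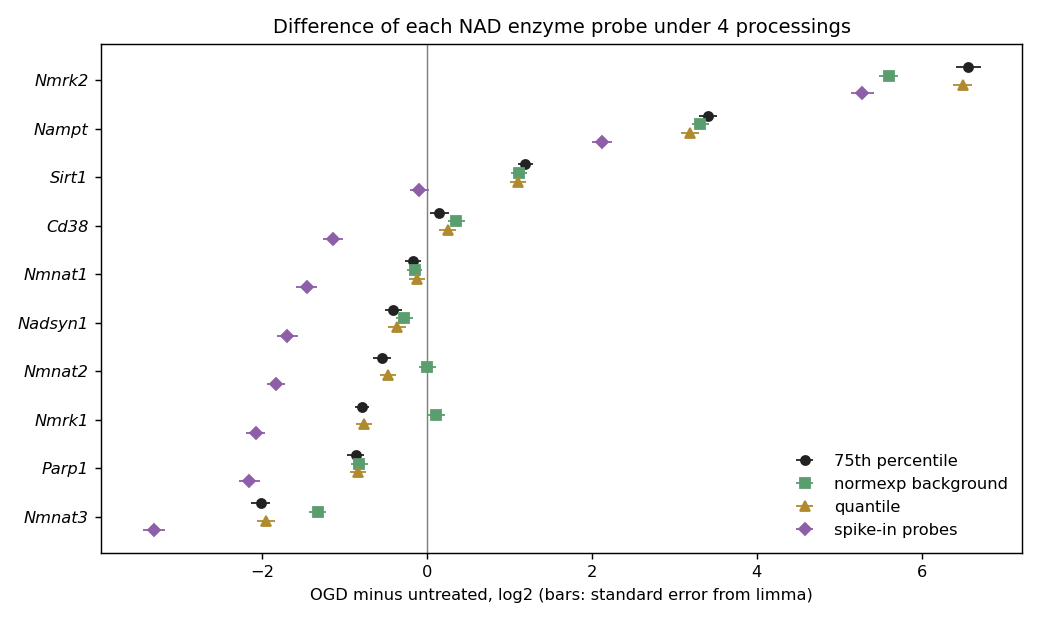
Difference after OGD minus untreated (log2, horizontal axis) of the tested probe of each gene under 4 processings: the 75th percentile of each array, normexp background correction, quantile normalization and scaling on spiked-in control probes, with standard errors from limma as bars. *Nmrk2* and *Nampt* stay above 0 and *Nmnat3*, *Parp1*, *Nadsyn1* and *Nmnat1* below 0 under all 4, whereas *Sirt1* (−0.094) and *Cd38* (−1.14) pass below 0 with spike-in scaling and *Nmrk1* (0.11) and *Nmnat2* (0.0027) above 0 with normexp.

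The other genes of NAD metabolism were taken from a list made by function. Of 57 genes listed, 56 were found on the array (*Adprs* was not matched by name), and 46 had a probe that could be tested, each represented by its brightest. In limma, 11 of the 46 (23.9%) rose and 18 (39.1%) fell at an adjusted p of 0.05, beside 37.1% and 27.9% of the 21009 genes tested, and their median was −0.13 against 0.16 over all genes. With spike-in scaling, 1 rose and 40 fell, and with normexp 18 rose and 18 fell.

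Among the enzymes of precursor supply and disposal, 1 of the 12 tested rose and 6 fell. *Slc29a3*, a nucleoside transporter of lysosomes, fell by 1.76 log2 units (standard error 0.14, limma adjusted p = 0.0018), and by 0.85 with normexp. *Pnp*, a phosphorylase that splits nucleosides and can release nicotinamide from its riboside, read 16730 and 18351 untreated and 2473 and 2051 after OGD, and fell by 1.59. Both OGD arrays of *Pnp* read below both untreated arrays. *Nnmt*, which methylates nicotinamide, fell by 1.31 (0.60 with normexp) and *Aox1*, the aldehyde oxidase that oxidizes the methylated product, by 1.17. *Naprt*, the first enzyme of the nicotinic acid route, fell by 0.68, and *Slc29a2*, a nucleoside transporter of the cell membrane, by 0.42. *Naprt* opens the route that *Nadsyn1* closes, and both read lower on the normalized scale. *Slc25a51*, the mitochondrial NAD carrier, was the gene that rose, at 0.64, but this was −0.65 with spike-in scaling, and its other probe was at −0.26. Untreated, the probe that rose read 3533 and 4027 against 4572 and 4744 for the other, so that it ranked as the brightest through the OGD arrays.

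In the kynurenine route, which makes NAD from tryptophan, 4 of the 9 listed genes could be tested (*Afmid*, *Kmo*, *Haao*, *Qprt*), and their values lay between −0.064 and 0.29. Of these, 0 passed in limma, with 0 also at an unadjusted p under 0.05, and 1 (*Afmid*) passed with the methods' t-test after adjustment. After OGD *Qprt* read 11.7 and 9.39 and *Haao* 15.5 and 10.2, and *Kmo* was not well above background on either array. The lowest signals flagged as well above background on those arrays were 6.33 and 7.00. So close to background, these genes could hardly show a fall, and no lack of change is read from them. *Tdo2*, *Ido1*, *Ido2*, *Kynu* and *Acmsd* were too dim to be tested. *Nadk*, the kinase that makes NADP in the cytosol, rose by 1.17 as 1 of the 3 genes of NADP synthesis and transhydrogenation. Its other probe was at −0.32 and did not pass, and with spike-in scaling the value was −0.11. The probe that rose ranked as the brightest only through the OGD arrays, since untreated it read 5866 and 6135 against 8347 and 7205 for the other, so that the choice of probe favored the rise.

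Of the other 6 sirtuins, 1 rose and 3 fell. *Sirt4*, a mitochondrial sirtuin, read 1224 and 1301 untreated and 110 and 124 after OGD, a fall of 2.06 (standard error 0.15, adjusted p = 0.0016 in limma). *Sirt6*, which acts on chromatin, fell by 1.06 and *Sirt5*, a mitochondrial desuccinylase, by 1.01. *Sirt2*, the mainly cytoplasmic sirtuin, rose by 1.09 on the normalized scale, a change that became −0.20 with spike-in scaling, as for *Sirt1*. *Sirt3* did not pass, at 0.24. Nor did the brightest of the 3 tested probes of *Sirt7*, at 0.028, while its other probes rose by 0.55 and 1.06 (adjusted p = 0.048 and 0.016 in limma).

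Of the other 14 members of the PARP family, 5 rose and 7 fell. *Parp14*, a mono-ADP-ribosyltransferase with macrodomains that interferon induces, had the largest change of the 46 genes, with a processed signal of 3557 and 3777 untreated and 122 and 92.2 after OGD. Both OGD arrays were far below both untreated arrays, a fall of 3.74 (standard error 0.11, adjusted p = 7.2e-04 in limma), or 13.3-fold. *Parp16*, of the endoplasmic reticulum membrane, fell by 1.96 (1.06 with normexp) and *Parp10* by 1.37, and *Parp9*, *Parp2*, *Parp3* and *Parp12* by 0.95 to 0.38, although the dimmer probe of *Parp9* rose by 3.09. *Tiparp*, which the aryl hydrocarbon receptor induces, read 7495 and 7466 untreated and 15710 and 14036 after OGD. It was the gene of the list whose increase was the largest, at 2.36 (standard error 0.075, adjusted p = 7.2e-04 in limma), and the 1 related gene that still rose with spike-in scaling, by 1.07. *Parp6* rose by 1.08 on the normalized scale and was at −0.21 with spike-in scaling, and *Parp8*, *Parp11* and *Tnks* rose by 0.81, 0.48 and 0.25 and were at −0.48, −0.81 and −1.04 with spike-in scaling.

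Both testable genes of the group of other NAD glycohydrolases and ADP-ribosyltransferases rose, *Art3* by 0.43, a value that was −0.86 with spike-in scaling. *Bst1* (CD157), the closest relative of *Cd38*, read 80.6 and 76.7 untreated and 152 and 84.8 after OGD, with the OGD arrays far apart from each other. Its rise of 1.90 (standard error 0.25, adjusted p = 0.0052 in limma) did not pass with the methods' t-test or with spike-in scaling, where it was 0.61. *Bst1* is also carried by myeloid cells, and the summed microglia signal given above moved in the same direction. The part of such cells in its value was not tested. Among the 5 genes that remove ADP-ribose, 1 rose and 2 fell (*Oard1* by 0.67 and *Macrod2*, whose probes disagreed, by 0.78), and *Macrod1*, a mitochondrial ADP-ribose hydrolase, rose by 1.06 on the normalized scale and was at −0.23 with spike-in scaling.

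**Figure D3:**
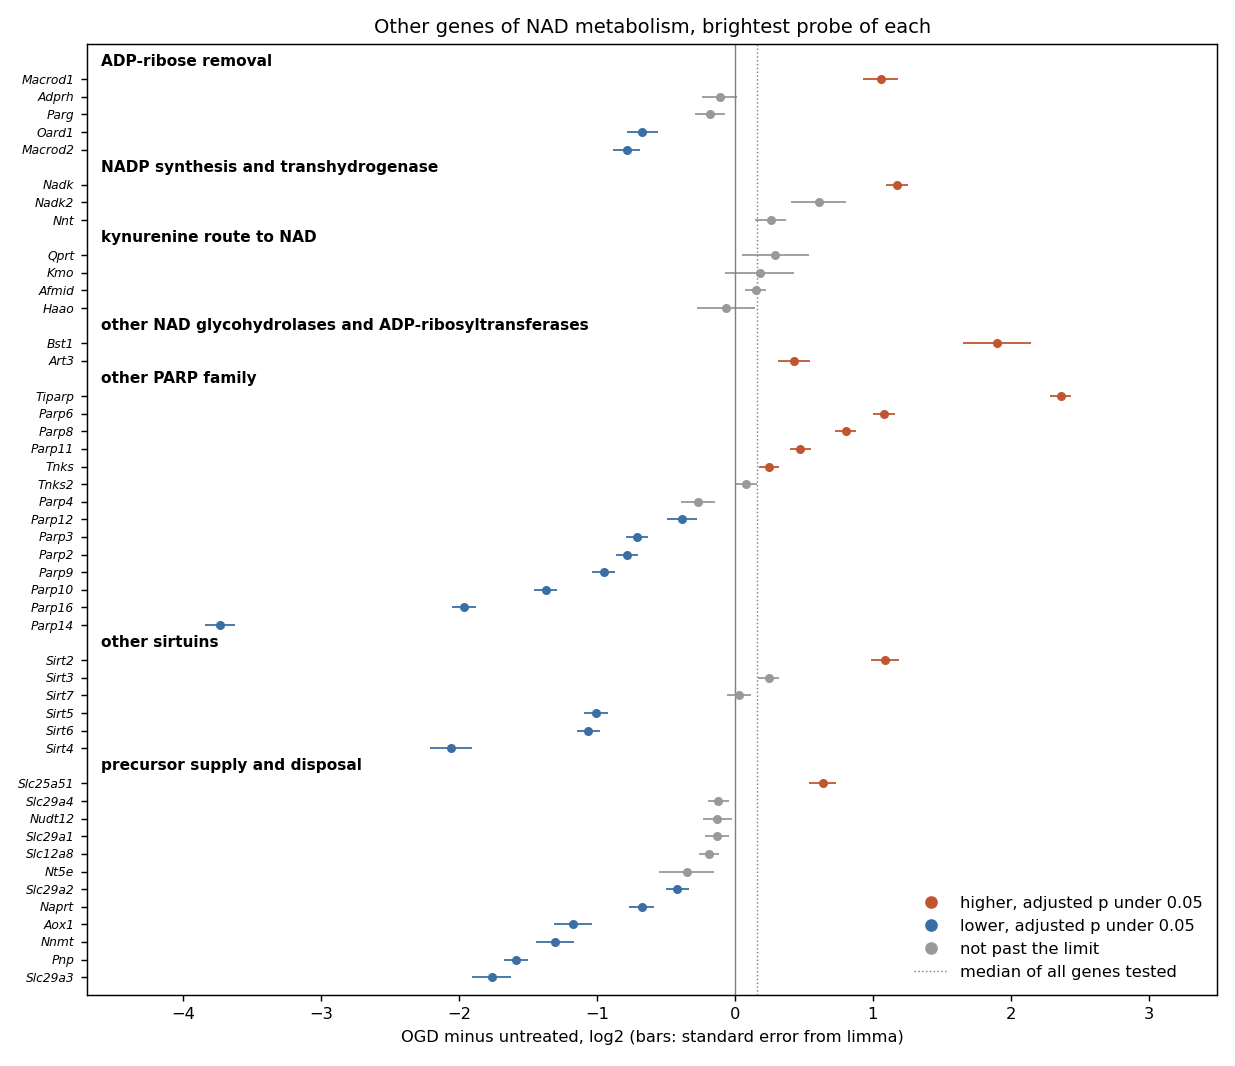
Difference after OGD minus untreated (log2, horizontal axis, relative to the 75th percentile of each array) of the brightest probe of 46 other genes of NAD metabolism, grouped by function, with standard errors from limma as bars, colors for the adjusted p of 0.05 and a dotted line at the median of all genes tested (0.16). *Parp14* lies farthest to the left at −3.74 and *Tiparp* farthest to the right at 2.36, and with spike-in scaling 9 of the 11 genes that rose pass below 0, all but *Tiparp* and *Bst1*.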

How the data were processed

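Total RNA of 2 untreated AECs and 2 AECs after OGD for 15 h was measured on 1-color Agilent arrays. The authors deposited, per the file headers, an intensity per spot from Agilent Feature Extraction 11.5.1.1, the processed signal, with background subtracted within each array and no normalization between arrays. The deposited series table repeats this intensity spot by spot (largest difference 0). Probe positions are on mm9, and gene names are those of the array's design.

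Spots for controls and those flagged as outliers were removed, log2 was taken, spots of a probe were averaged and, as in the methods, each array's 75th percentile over the non-control probes was subtracted. A probe was tested if it was well above background (flagged so in a fraction of 0.5 or more of its spots) on both arrays of at least 1 group and had a value on all 4 arrays. The 28163 probes were fitted with limma 3.58.1 in R 4.3.3 (lmFit, eBayes) and adjusted by the Benjamini–Hochberg method. The steps were tested on simulated data. The number of arrays limits the precision. Standard errors and p-values from limma rest on each probe's spread between 2 arrays per group, drawn toward a value shared by all probes tested.

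Samples were grouped by the labels. The 10 genes, the lists of related genes and markers and all alternatives were chosen with earlier results of these data known. The text names all 10 genes, each related gene past the adjusted p and over 2-fold, and the 3 genes closest to *Nmrk2*. Other related genes that appear were chosen after their values were seen. Alternatives tried were the t-test named in the methods, a trended and robust limma fit, a block on replicate number, normexp (offset 50), quantile and median scaling, the percentile over probes well above background, spike-in scaling, no filter or a stricter filter, outlier spots kept, the series table, a gene's mean over its probes, and leaving out each array. Promoters came from a RefSeq table of GRCm38.p6, and no position was carried between builds. The study's other experiments (PCR, imaging, cell death) were not used here.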

Additional observations from a re-analysis of the deposited data

How the results depend on the processing

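With 2 arrays per group, spread is poorly known, and signs on the normalized scale rest on what the arrays are set against: the median of all probes tested moved from 0.18 to −1.11 with spike-in scaling and to 0.56 with normexp. With spike-in scaling *Nmrk2* was at 5.28 and *Sirt1* (−0.094), *Nadk* (−0.11), *Sirt2* (−0.20), *Parp6* (−0.21) and *Macrod1* (−0.23) changed sign, and 1 related gene rose and 40 fell. With normexp *Nmrk2* was at 5.60, *Nmrk1* at 0.11 and *Nmnat2* at 0.0027, and 18 related genes rose. The cause was not tested. The difference of *Nmrk2* lay between 6.39 and 6.73 when 1 array was left out. The number of related genes that rose lay between 7 and 11, with 7 without untreated replicate 1 and 8 without untreated replicate 2, the number that fell between 14 and 19, and the number of member probes past the adjusted p between 6 and 8. The rise of *Bst1* did not pass with the methods' t-test (1.90) or spike-in scaling (0.61), nor that of *Nadk* with the mean over its probes (0.43). The deviations of samples with the same number had a correlation of −0.057 over probes. With 2 arrays per group this cannot decide whether the numbers pair samples, and the labels do not say. With the replicate number as a block, 8 member probes still passed, 10 related genes rose and 17 fell, and 17198 of all 28163 probes were past the adjusted p, against 18334 without the block. The methods' t-test called 12680 probes, 6 of the 10 member probes among them. The probes it lost were those of *Nmnat2* and *Nadsyn1*. In all, 9 of the 11 related genes that rose were below 0 with spike-in scaling, and with the mean over a gene's probes *Parp9* (1.07) and *Macrod2* (0.19), which had fallen, were above 0. The other alternatives left each of these 3 counts within 1.5 times its value and turned the sign of no member or related gene that had passed.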

Other observations

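Among the 46 other genes of NAD metabolism, 19 had more than 1 probe that could be tested. In 10 of them all probes passed in the same direction, in 3 none passed, in 3 some passed and some did not, and in 3 (*Parp9*, *Macrod2* and *Slc25a51*) probes passed in opposite directions. *Parp9*, which works with the ubiquitin ligase DTX3L, has probes 4275 bases apart on chromosome 16 of mm9. The brighter (35972577 to 35972636, NM_030253) read 2500 and 2630 untreated and 565 and 463 after OGD, a normalized log2 difference of −0.95 (standard error 0.084). The dimmer (35968243 to 35968302, ENSMUST00000114877.7) read 29.1 and 34.1 untreated and 115 and 93.2 after OGD, a difference of 3.09 (standard error 0.11). So before any scaling the 2 probes moved in opposite directions, and both were well above background on all 4 arrays.

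The probes of *Tnks2*, a tankyrase, also differed. Its brightest probe (chromosome 19 of mm9, 36967293 to 36967352) read 14097 and 14105 untreated and 6003 and 5537 after OGD, a difference of 0.083 that did not pass. The probe 1546 bases before it on the same chromosome (36965688 to 36965747) read 1273 and 1380 untreated and 2191 and 1914 after OGD, a difference of 2.00 (standard error 0.082, adjusted p = 7.7e-04 in limma). Both probes are assigned to NM_001163635. These probes were chosen after their values were seen, and which transcripts they read was not tested.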
